A study of Homo sapiens with 12 samples.

Results

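The comparison described here sets U87 cells given temozolomide together with Y15 against untreated U87 cells, across all genes whose probes were detected. It was chosen by the sample titles alone, which give 2 arrays for the combination and 2 for untreated cells, 4 of the 12 arrays of the study. U87 is an established human glioblastoma cell line. The untreated group received neither drug. The combination group received Y15 at 10 µM and temozolomide for 24 h. The titles give the temozolomide dose as 20 µM and the study's design text as 100 µM, so the dose is known only as one of these values. U87 cells given Y15 alone (10 µM) or temozolomide alone at that same dose, also 2 arrays each, were used to place the combination beside each drug. DBTRG cells, another glioblastoma line, entered the normalization, the probe filter and the estimate of the spread, but no comparison. The groups compared are all cells of 1 line, with no allele or transgene named in the labels, and nothing in the labels says whether the 2 arrays of a group came from separate cultures. The p-values therefore cover only how far these arrays vary, and that variation may be technical.

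Temozolomide is a methylating drug used against glioblastoma. It puts methyl groups on DNA bases, and the damage can activate p53, which raises genes such as CDKN1A that halt the cell cycle. Y15 is a small molecule described as an inhibitor of FAK, the focal adhesion kinase made from the gene PTK2. This tyrosine kinase passes signals from integrins at sites where a cell grips its surroundings. FAK signalling is known for its part in the spread, survival and growth of glioblastoma cells.

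Of 47323 probes on the array, between 14437 and 16889 were detected per U87 array, and 16661 were detected in at least 2 of the 4 arrays compared. The combination arrays detected 16143 and 16756 probes, close to the 16431 and 15981 of untreated cells, while the arrays with Y15 alone detected 14437 and 15169. The median raw signal was 123.4 and 118.7 in untreated cells, 123.2 and 118.8 with temozolomide, 107.7 and 105.8 with Y15, and 103.6 and 104 with the combination. The 2 arrays of a group correlated across genes at 0.995 for untreated cells and 0.994 for the combination. Of 14 markers of glioma and mesenchymal cells, 10 were detected in all 4 arrays, among them VIM, CD44 and NES. The 4 that no array detected were GFAP, S100B, PDGFRA and SOX2, of which GFAP and S100B are defining genes of astrocytes. The summed signal of all 14 ran from 67800 to 71400 in untreated cells and from 64000 to 64500 with the combination. Of 12 microglia and macrophage markers 3 were detected in all 4 arrays and 7 in none, and their summed signal was 4520 to 4950 against 4040 to 4500. One of the 3, CD68, a lysosomal protein of macrophages, gave 11.93 and 12.07 in untreated cells and 11.90 and 11.71 with the combination and was not called. Endothelial markers (6 of 8 detected in no array), epithelial markers (6 of 7) and lymphocyte markers (5 of 7) were mostly at background. Of these other cell types' markers 3 were called: CD14 of monocytes was higher (5.21 and 5.60 against 6.65 and 6.58), TEK of endothelium lower (by 1.08 ± 0.20), and CD79A of B cells, which neither untreated array detected, at least 1.06-fold higher. Their part in the results was not tested. With bulk RNA, fewer cells of a kind and less RNA per cell cannot be told apart.

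The combination changed a large part of the measured transcriptome. Of 11423 genes tested, 2643 (23.1%) passed an adjusted p of 0.05 in limma with Benjamini-Hochberg adjustment, of which 1137 (9.95% of all genes) were higher and 1506 (13.2%) lower than in untreated cells. At least a 2-fold difference was reached by 434 called genes, 336 of them higher and 98 lower, so that the large changes were mostly rises. The median change of all genes was -0.055 on the log2 scale. This split depends on how arrays are scaled: when arrays were centred on their medians in place of quantile normalization, 686 genes were called higher and 1942 lower, with a median of -0.177 over all genes. The number called fell to 1319 and 1195 without the first and the second untreated array, and to 1514 and 1139 without the first and the second combination array. Below, levels are normalized log2 signals of 1 probe per gene, changes are differences of mean log2 level (combination minus untreated) ± SE with 2 arrays in each group, and "called" means past the adjusted threshold over all 11423 genes. Each count of called list members stands beside the shares of all genes, 9.95% higher and 13.2% lower. Counts with an array left out stand beside the lower totals just given.

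**Figure D1:**
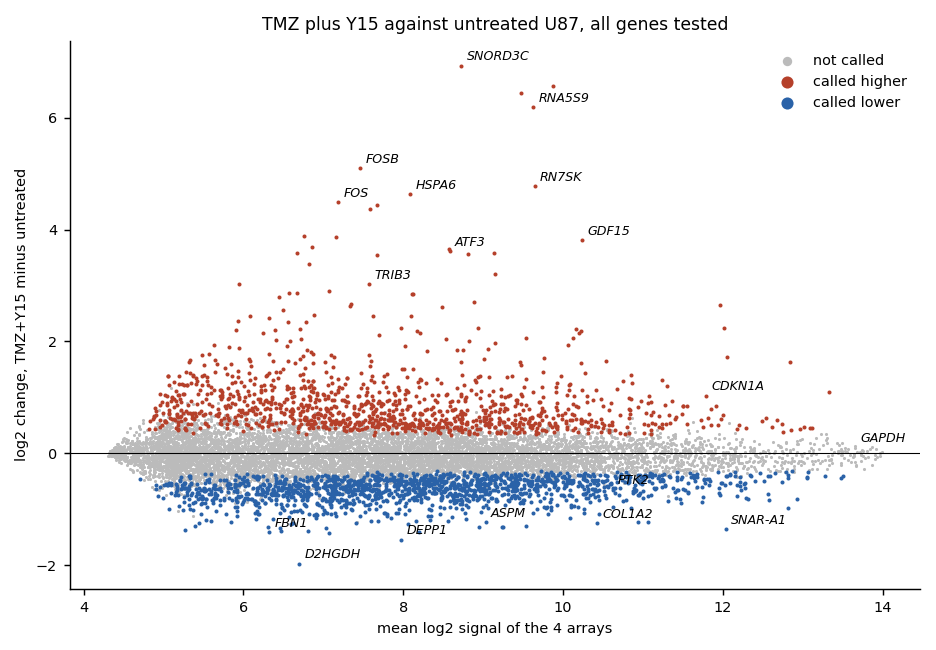
Log2 change of the combination against untreated U87 cells (vertical axis) plotted against the mean log2 signal of the 4 arrays (horizontal axis), 1 point for each of 11423 genes. Red points are the 1137 genes called higher, blue points the 1506 called lower and grey points the rest; the rises reach 6.93 and the falls -1.97.

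The 10 largest rises with the combination were 7 small RNAs that do not code for protein, 2 members of the FOS family and the heat shock gene HSPA6. The U3 small nucleolar RNA, which directs the cutting of ribosomal RNA precursors, is represented by 3 near-identical copies whose probes may share signal. SNORD3A gave log2 levels of 6.22 and 6.30 in untreated cells and 12.56 and 12.84 with the combination. Its change was 6.44 ± 0.49, with an adjusted p of 2.56e-05, and the groups did not overlap. SNORD3C and SNORD3D rose by 6.93 ± 0.61 and 6.56 ± 0.63. For the 5S ribosomal RNA copy RNA5S9 the levels were 6.56 and 6.50 in untreated cells and 12.66 and 12.78 with the combination, a rise of 6.19 ± 0.57. RN7SK, the RNA that holds the elongation kinase P-TEFb inactive, went from 6.91 and 7.61 to 11.96 and 12.10 (4.77 ± 0.27). RNU6ATAC of the minor spliceosome rose by 4.44 ± 0.56 and SNORD13, which guides acetylation of ribosomal RNA, by 4.36 ± 0.21. For SNORD3C, RNU6ATAC and SNORD13 only 1 untreated array detected the probe.

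The rise extended over nearly every class of small RNA on the array. Of 131 small RNAs measured, 94 were called higher and 1 lower, with between 67 and 78 called higher when 1 of the 4 arrays was left out. Of the 50 that both untreated arrays detected, 37 were higher and 1 lower, against 9.75% higher among all 9600 genes detected there. All 12 spliceosomal RNAs were higher, among them the 8 that both untreated arrays detected, whose median change was 3.37. Those 8 include copies of U1 (RNU1-1, RNU1-3, RNVU1-7 and RNVU1-18) and of U4 (RNU4-1 and RNU4-2). Probes of such copies may share signal, so the 8 are not all separate RNAs. Among box C/D small nucleolar RNAs other than U3 and U13, which guide methylation of ribosomal RNA, 40 of 55 were higher, but both untreated arrays detected only 9 of them, of which 8 were higher (median 1.51). Among box H/ACA RNAs, which guide pseudouridine formation, 29 of 42 were higher, and 13 of the 19 detected in both untreated arrays (median 0.78). Of the 6 Cajal body RNAs 2 were higher, and the 1 that both untreated arrays detected was not called. The remaining RNA polymerase III transcripts split, with 6 higher and 1 lower of 11 detected in both untreated arrays. RMRP and RPPH1, the RNAs of the RNase MRP and RNase P enzymes, rose at least 10.2-fold (RMRP, which no untreated array detected) and by 2.90 ± 0.19 (RPPH1), whereas VTRNA2-1 fell by 0.61 ± 0.15 and the change of the signal recognition particle RNA RN7SL1 was 0.24 ± 0.11, which was not called. The host genes that carry small nucleolar RNAs in their introns rose as well. Of 13 measured from a list of 21, 12 were called higher and none lower, with a median of 1.13 (9 higher when any 1 array was left out). SNHG1, for example, gave 9.11 and 9.08 in untreated cells and 10.96 and 11.09 with the combination (1.93 ± 0.14). The probe for 18S ribosomal RNA (RNA18SN5) moved with these RNAs, from 10.39 and 10.88 to 13.30 and 13.28. The labelling protocol amplifies total RNA to cRNA, and the part of RNA quality or of polyadenylation in the small RNA result was not tested.

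**Figure D2:**
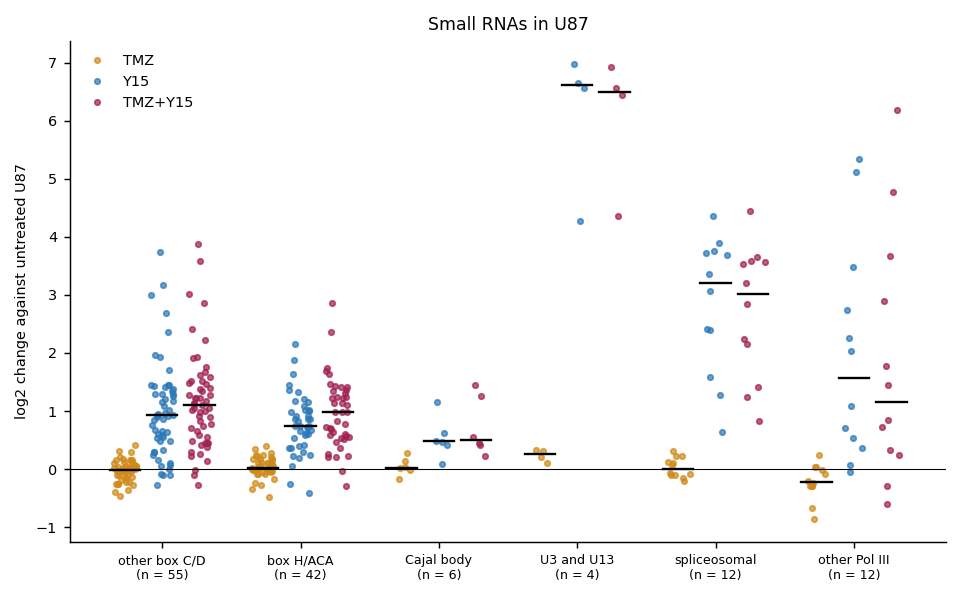
Log2 change against untreated U87 cells (vertical axis) for 131 small RNAs in 6 classes (horizontal axis) with temozolomide (TMZ), Y15 or both. Each point is 1 RNA and each bar the median over all RNAs of the class, detected in untreated cells or not; with the combination the medians run from 0.50 for Cajal body RNAs to 6.50 for U3 and U13.

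Genes of the amino acid response, which the transcription factor ATF4 switches on when protein synthesis is under stress, rose together. From a list of 32, 31 were measured, of which 24 were called higher and 1 (SLC7A1, an arginine transporter) lower, with a median change of 1.10. Among its transcription factors, ATF3 gave log2 levels of 6.94 and 6.62 in untreated cells and 10.44 and 10.33 with the combination, a change of 3.61 ± 0.17 or 12.2-fold (adjusted p 2.4e-06). DDIT3, which encodes the stress factor CHOP, rose from 7.32 and 7.73 to 10.17 and 10.31 (2.71 ± 0.15, adjusted p 3.71e-06), and ATF4 itself rose by 1.73. In both genes every treated array lay above both untreated arrays. The feedback gene TRIB3, a pseudokinase that restrains ATF4, rose from 5.98 and 6.15 to 9.15 and 9.03 (3.02 ± 0.16). Among the enzymes, ASNS, which makes asparagine, rose from 9.14 and 9.13 to 11.33 and 11.31 (2.19 ± 0.12). PSAT1 and PHGDH of serine synthesis rose by 1.61 and 0.62, and CTH of cysteine synthesis by 2.67. CBS of the same pathway was detected in neither untreated array and was at least 1.62-fold higher. Of the amino acid carriers, SLC3A2 and SLC7A5, which form 1 exchanger, rose by 2.15 and 1.98. SLC7A11, the cystine carrier, was detected in neither untreated array and in both combination arrays. Its level was 4.53 and 4.52 against 5.45 and 5.44, at least 1.07-fold higher (adjusted p 0.00064).

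ATF4 and CHOP are known to bind composite elements of the form TGATGNAA. Of 17 rises singled out by rule, 9 had a RefSeq promoter covering 250 bases before to 50 bases after the start (GRCh38.p14). The rule takes in genes of the ATF4 list, so the counts that follow are a description and not a test of enrichment. The percentages count single promoters, while a gene with several starts had several windows. On either strand, 2 of the 9 genes held TGATGNAA, which is in 3.62% of all 35116 such promoters. The cyclic AMP response element TGACGTCA was held by 0 of them and is in 1.85% of all promoters. The 2 genes were ASNS and ATF3, and 100 bases around each match are shown, 5′ to 3′ on the gene's strand, because they are genes of the ATF4 group with large rises.
ASNS promoter, chr7:97872423-97872522, minus strand: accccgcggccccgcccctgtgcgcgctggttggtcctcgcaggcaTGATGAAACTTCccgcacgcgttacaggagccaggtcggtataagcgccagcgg
ATF3 promoter, chr1:212565170-212565269, plus strand: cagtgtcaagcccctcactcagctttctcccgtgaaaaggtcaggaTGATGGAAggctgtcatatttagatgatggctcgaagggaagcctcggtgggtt
Capitals mark the matches. In ASNS the match starts 68 bases before the start, and the capitals also take in GAAACTTC, a match to the heat shock half-element pair GAANNTTC that overlaps it. In ATF3 the match starts 191 bases before an upstream start, while the window of the downstream start held none. A match is a description of letters, not of binding.

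The ATF4 rise was not matched by the chaperones of the endoplasmic reticulum. Of 19 measured from a list of 22, 1 was called higher and 6 lower, with a median of -0.21. HSPA5, the main chaperone of that compartment (BiP), fell from 9.92 and 9.93 to 9.13 and 9.04 (-0.84 ± 0.10, adjusted p 0.000495). CANX, HSP90B1 and SEL1L fell by 0.72, 0.65 and 0.83, and DNAJB9, a target of the IRE1 and XBP1 branch, rose by 0.91. Of 18 cytosolic tRNA synthetases 5 were higher (WARS1, FARSB, MARS1, GARS1 and SARS1, by 0.48 to 0.68) and 2 lower (QARS1 and VARS1), with 0 to 2 called higher when an array was left out.

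Cytosolic heat shock genes rose in a few members by very different amounts. HSPA6, an inducible HSP70 gene, gave 5.61 and 5.92 in untreated cells and 10.43 and 10.37 with the combination, a 24.8-fold rise (4.63 ± 0.21, adjusted p 2.4e-06). CRYAB, a small heat shock protein, was detected in no untreated array and rose at least 1.78-fold (4.83 and 4.96 to 6.21 and 6.16), and HSPB8 rose by 0.98 ± 0.19. In all, 7 of 21 measured genes were called higher (4 or 5 when an array was left out) and none lower, with a median of 0.15. The changes of HSPA1B (0.27), HSPA8 (-0.19), HSPH1 (0.11) and HSP90AA1 (0.04) were not called. Heat shock factor HSF1 binds paired GAA elements. GAANNTTC, searched on both strands after the values were known, was in promoter windows of 2 of the 9 genes (HSPA6 and ASNS). It is in 6.77% of all promoters counted singly. The promoter of HSPA6 is shown because it is the largest rise among protein-coding genes detected in untreated cells, with its 2 matches in capitals, 180 and 69 bases before the start.
HSPA6 promoter, chr1:161524290-161524589, plus strand: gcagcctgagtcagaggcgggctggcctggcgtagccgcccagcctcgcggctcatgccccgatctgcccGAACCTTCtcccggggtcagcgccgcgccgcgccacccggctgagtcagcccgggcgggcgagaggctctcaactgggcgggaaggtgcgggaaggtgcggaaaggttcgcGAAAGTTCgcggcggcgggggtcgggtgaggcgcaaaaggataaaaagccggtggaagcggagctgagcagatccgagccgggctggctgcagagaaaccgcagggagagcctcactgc

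Oxidative and metal stress genes moved in part. Of 19 measured NRF2 targets 6 were higher, led by the thioredoxin reductase TXNRD1 (10.56 and 10.60 to 11.80 and 11.98, 1.31 ± 0.12) and by SRXN1, which repairs peroxiredoxins (1.15 ± 0.11). HMOX1, which degrades heme and is often taken as the lead NRF2 target, was not called: its levels were 12.29 and 12.47 in untreated cells and 12.08 and 12.24 with the combination, a difference of -0.22 ± 0.12 (adjusted p 0.230). NQO1 differed by -0.05. Of 8 metallothionein and zinc export genes 4 were higher: MT1M (1.33 ± 0.19), MT1H (1.16 ± 0.18), MT1G (0.85) and the zinc exporter SLC30A1 (0.86 ± 0.13). The abundant MT2A differed by 0.01. Metallothionein probes can share signal because the genes are near-identical.

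A part of the p53 targets rose, with the secreted stress factor GDF15 in the lead. GDF15 gave 8.33 and 8.34 in untreated cells and 12.12 and 12.17 with the combination, 14-fold (3.81 ± 0.12) and the smallest adjusted p of all genes, 9.59e-08. Of 30 measured targets from a list of 32, 16 were called higher and none lower, with a median of 0.62. CDKN1A, which encodes the cell cycle inhibitor p21, rose from 11.29 and 11.27 to 12.27 and 12.35 (1.03 ± 0.10, adjusted p 0.000103). The growth arrest gene GADD45A rose by 2.07 ± 0.13 and the death gene PMAIP1 (NOXA) by 2.45 ± 0.16. SESN2 (2.04), PPM1D (1.16), TNFRSF10B (0.90) and BAX (0.73) were also called. Several of these, such as GDF15, PMAIP1, SESN2 and TNFRSF10B, are also known to answer to ATF4 or CHOP. MDM2, the ubiquitin ligase that p53 induces to limit itself, was not called: 5.62 and 6.0 in untreated cells against 6.59 and 6.0 with the combination (0.48 ± 0.23, adjusted p 0.153), with touching ranges. CCNG1 (0.21) and ZMAT3 (-0.28) were not called. In the BCL2 family, 4 of 14 genes were higher (PMAIP1, BAX, BCL2L11 and BCL2L2) and none lower (2 or 3 higher with an array left out), while the family's median of 0.07 became -0.12 with median centring.

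Immediate early genes, which growth factor and stress kinases switch on, were among the largest rises. FOSB and FOS, subunits of the AP-1 factor, were detected in neither untreated array. FOSB went from 4.65 and 5.17 to 9.99 and 10.03, at least 25.3-fold (adjusted p 4.95e-06), and FOS from 4.90 and 4.97 to 9.24 and 9.62, at least 16.9-fold (adjusted p 4.02e-06). KLF4 rose by 2.47 ± 0.16, EGR1 by 2.24 and NR4A2 by 1.65. Of 30 measured genes of the list 14 were higher (9 to 13 with an array left out) and 3 lower. The 3 lower genes were FOSL1 (-0.80) and the MAPK inhibitors SPRED1 (-0.48) and SPRED2 (-0.37), and among other feedback genes DUSP6 (-0.03) and SPRY2 (-0.10) were not called. MYC rose by 0.63 ± 0.14 (8.75 and 9.02 to 9.50 and 9.53, adjusted p 0.0104), a call that was lost with median centring (0.126) and without the first untreated array (0.0868) or the second combination array (0.0659).

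Cytokines and feedback genes of the NF-kB pathway rose without a single called fall: 15 of 22 measured genes, with a median of 0.90. The neutrophil attractant CXCL8 rose from an already high 12 and 12.05 to 13.65 and 13.67 (1.64 ± 0.13), CXCL2 by 2.46 ± 0.22, and PTGS2, the prostaglandin synthase COX-2, from 8.92 and 9.18 to 11.29 and 11.28 (2.23 ± 0.18). IL6 (1.70), CCL20 (not detected in untreated cells, at least 2.67-fold higher), LIF (0.94) and the inhibitor TNFAIP3 (1.18) were called as well. NFKB1 (0.04) and NFKBIA (0.26) were not. Of 20 interferon-stimulated genes 3 were higher (IRF7 1.11, IFIT2 0.73, ISG20) and none lower, beside 9.95% higher and 13.2% lower among all genes. With any array left out 1 was called higher. ISG20 was detected in neither untreated array and was at least 1.31-fold higher.

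Genes of cell division fell as a group. Of 45 measured genes of G2 and mitosis, 31 were called lower and none higher, with a median of -0.58, and 19 to 24 were lower when 1 of the 4 arrays was left out. ASPM, which organizes spindle poles, fell from 9.56 and 9.74 to 8.42 and 8.41 (-1.23 ± 0.11, adjusted p 7.45e-05). TOP2A, the topoisomerase that untangles sister chromosomes, fell from 11.52 and 11.59 to 10.42 and 10.25 (-1.22 ± 0.13), and the condensin gene SMC2 fell by 1.09 ± 0.12. The centromere motor CENPE (-1.20), CENPF (-1.11) and MKI67 (-0.80) were also called. CDK1 (-0.19), CCNB2 (-0.17), PTTG1 (0.05) and FOXM1 (-0.28) were not. Among 36 measured G1/S and DNA replication genes, 22 were lower (9 to 13 with an array left out) and 1, CCNE1, was higher (0.66), with a median of -0.56. The replicative helicase gene MCM4 fell by 0.79 ± 0.12, the primase polymerase POLA1 by 0.91 ± 0.13 and the flap nuclease FEN1 by 0.83 ± 0.11, while PCNA differed by 0.13. Replication-dependent histone genes, whose RNAs carry no poly(A) tail in cycling cells, did not follow: 8 of 27 measured from a list of 60 were higher and 1 lower (4 to 6 higher with an array left out). H2AC18, H3C13 and H2BC5 rose by 1.14, 0.96 and 0.88, although histone probes can share signal.

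Among DNA repair genes, those of homologous recombination mostly fell where they were called, and those that act on temozolomide lesions went both ways. Of 20 genes of homologous recombination, the Fanconi pathway and the checkpoint kinases, 10 were lower and 1 (XRCC2, 0.61) higher, with a median of -0.47; 3 to 9 were lower with an array left out. BARD1, the partner of BRCA1, fell by 0.94 ± 0.15, RAD51AP1 by 0.68 ± 0.12, FANCG by 0.54 ± 0.11, and the damage kinase ATM by 0.83. ATR, its sister kinase, was detected in neither combination array and was at least 1.19-fold lower. From the list of 17 genes that act on temozolomide lesions, 14 were measured. ALKBH3 (0.63), ALKBH2 (0.47) and TDG (0.59) were higher, and FEN1, LIG3 (-0.86 ± 0.16), PARP1 (-0.80 ± 0.15) and the mismatch repair gene MSH6 (-0.64) were lower. With an array left out, 0 or 1 of these 14 were called higher and 3 or 4 lower. MGMT did not enter the test.

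PTK2, the gene of the kinase that Y15 is described to inhibit, was lower in RNA. Its levels were 10.87 and 11.02 in untreated cells and 10.37 and 10.23 with the combination, a fall of 0.65 ± 0.12 (adjusted p 0.00464). The groups did not overlap, but the call was lost when all probes of the gene were averaged (0.0904). An RNA level does not measure the kinase's activity. PTK2B, which encodes the related kinase PYK2, differed by 0.01 ± 0.21 (adjusted p 0.976). Of 40 measured genes of FAK signalling and focal adhesions 14 were lower and 1, ROCK2, was higher (0.60), with a median of -0.24. That share of falls stands beside 13.2% of all genes. It was 7 or 8 genes when 1 array was left out, in fits that also called fewer of all genes. The falls included the integrins ITGA2 (-1.07), ITGB5 (-0.67 ± 0.11), ITGA3 (-0.65) and ITGAV (-0.56), the linker VCL (vinculin, -0.78 ± 0.12), ACTN4 (-0.84) and the caveolae gene CAV1, from 12.73 and 12.72 to 11.82 and 11.99 (-0.82 ± 0.10). SRC (0.30), PXN (-0.21), BCAR1 (0.00) and ZYX (0.05) were not called. Targets of SRF and YAP split: CCN2 and CCN1 rose by 1.18 ± 0.14 and 1.05 ± 0.13, and AXL (-0.74), MYOF (-1.0) and CALD1 (-0.71 ± 0.11) fell, 3 higher and 7 lower of 24 measured (4 to 6 lower with an array left out).

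Matrix genes fell in part, with fibrillar collagens among the larger falls. Of 30 measured, 15 were lower and 2 higher, with a median of -0.51 (7 to 11 lower with an array left out). COL1A2 fell from 11.15 and 10.95 to 9.84 and 9.77 (-1.25 ± 0.15, adjusted p 0.00037) and COL1A1 from 8.58 in both arrays to 7.55 and 7.57 (-1.02 ± 0.15). FBN1, the microfibril protein fibrillin-1, fell by 1.41 ± 0.15, and COL5A2 (-1.20), LOX (-0.95), which cross-links collagen, and TNC (-0.55) were called. The 2 that rose were the collagen-cutting proteases MMP1 (0.98) and MMP14 (0.79). The basement membrane collagen COL4A2 (-0.07) was not called.

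Of 29 glycolysis and hypoxia genes, 12 were lower (5 to 7 with an array left out) and 1, SLC2A3, was higher (0.38), with a median of -0.37. ALDOA fell by 0.97 ± 0.16, PFKFB4 by 0.96 ± 0.19, HK1 by 0.72 ± 0.14, the glucose carrier SLC2A1 by 0.88 and VEGFA by 0.84. GAPDH was not called, at 13.57 and 13.64 in untreated cells and 13.70 and 13.72 with the combination (0.10 ± 0.11). TXNIP, which restrains glucose uptake, was 10.55 and 10.59 against 11.08 and 11.15 (0.55 ± 0.21, adjusted p 0.0918). It passed the threshold in 6 of 16 alternatives, among them the fit on the U87 arrays alone (0.00403), with adjusted p-values from 0.00403 to 0.275 over all 16. Few transcripts of the ribosome and the respiratory chain were called. Of 42 ribosomal protein genes 1 was higher and 1 lower, and of 30 respiratory chain subunits 2 were higher (COX7B, 0.65) and 3 lower (CYC1 -0.50, NDUFS1 -0.59). Of 22 autophagy and lysosome genes 4 were higher and 1 lower, a share called that is near the 23.1% of all genes. The median of 0.11 turned to -0.08 with median centring. With an array left out 2 were called higher. The 4 include GABARAPL1 (1.87 ± 0.13) and MAP1LC3B (1.24 ± 0.12), whose proteins coat autophagosomes, and the cargo receptor SQSTM1 (0.42). Calls were few among cholesterol genes (2 of 19 higher, IDI1 and HSD17B7) and the P-TEFb genes. Of 23 ribosome biogenesis factors 3 were higher and 1, BOP1, lower. Of 14 splicing factors and CLK kinases 3 were higher and 1 lower, beside 9.95% higher and 13.2% lower among all genes. With an array left out, 0 or 1 cholesterol genes, 0 ribosome biogenesis factors, 0 ribosomal protein genes and 0 to 2 respiratory chain subunits were higher. In the splicing group CLK1 rose by 1.37 ± 0.23. SRSF11 was detected in neither untreated array and was at least 1.88-fold higher. Among the 8 genes of the 7SK particle and P-TEFb only RN7SK itself was called, and its kinase partner CDK9 differed by -0.24. Among the glioma markers OLIG2 (1.0 ± 0.14) and CHI3L1 (0.87) were higher and NES (-0.76 ± 0.21), CD44 (-0.44 ± 0.11) and ANXA1 (-0.40) lower. The falls numbered 0 or 1 with an array left out and 1 with median centring.

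**Figure D3:**
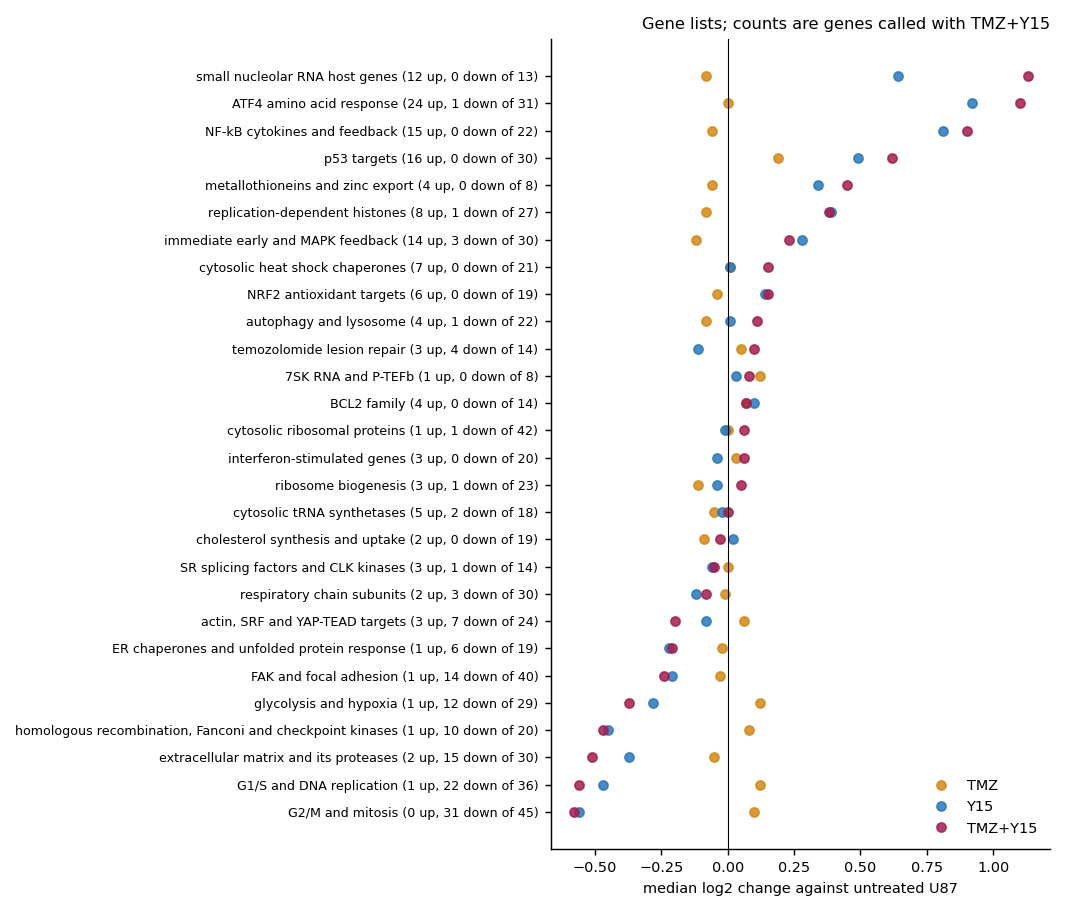
Median log2 change against untreated U87 cells (horizontal axis) of 28 gene lists (vertical axis) with temozolomide (TMZ, orange), Y15 (blue) or both (red). Each label gives how many measured genes were called higher (up) and lower (down) with the combination; medians near 0 for autophagy, BCL2, 7SK, ribosome biogenesis and lesion repair change sign with median centring, and those of the tRNA synthetase, cholesterol and splicing lists in at least 1 other setting.

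The falls were smaller than the rises. The largest was D2HGDH, which oxidizes D-2-hydroxyglutarate, from 7.59 and 7.76 to 5.73 and 5.69 (-1.97 ± 0.39, adjusted p 0.00578). DEPP1, a target of FOXO factors, fell from 8.78 and 8.71 to 7.12 and 7.28 (-1.54 ± 0.18). KIAA1549L fell by 1.42 ± 0.14, LNPK, which shapes the endoplasmic reticulum, by 1.40 ± 0.23, the signalling adaptor SHC3 by 1.39 ± 0.12, the adhesion protein TENM4 by 1.38 ± 0.16 and the glutamate carrier SLC1A1 by 1.34 ± 0.13. SNAR-A1 is an RNA polymerase III transcript, yet it fell from 12.55 and 12.88 to 11.54 and 11.18 (-1.35 ± 0.28, adjusted p 0.00759). The microRNA gene MIR658 was detected in both untreated arrays and in neither combination array, at least 1.56-fold lower. By the rule that chose these 10 falls, both treated arrays lay below both untreated arrays in each.

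**Figure D4:**
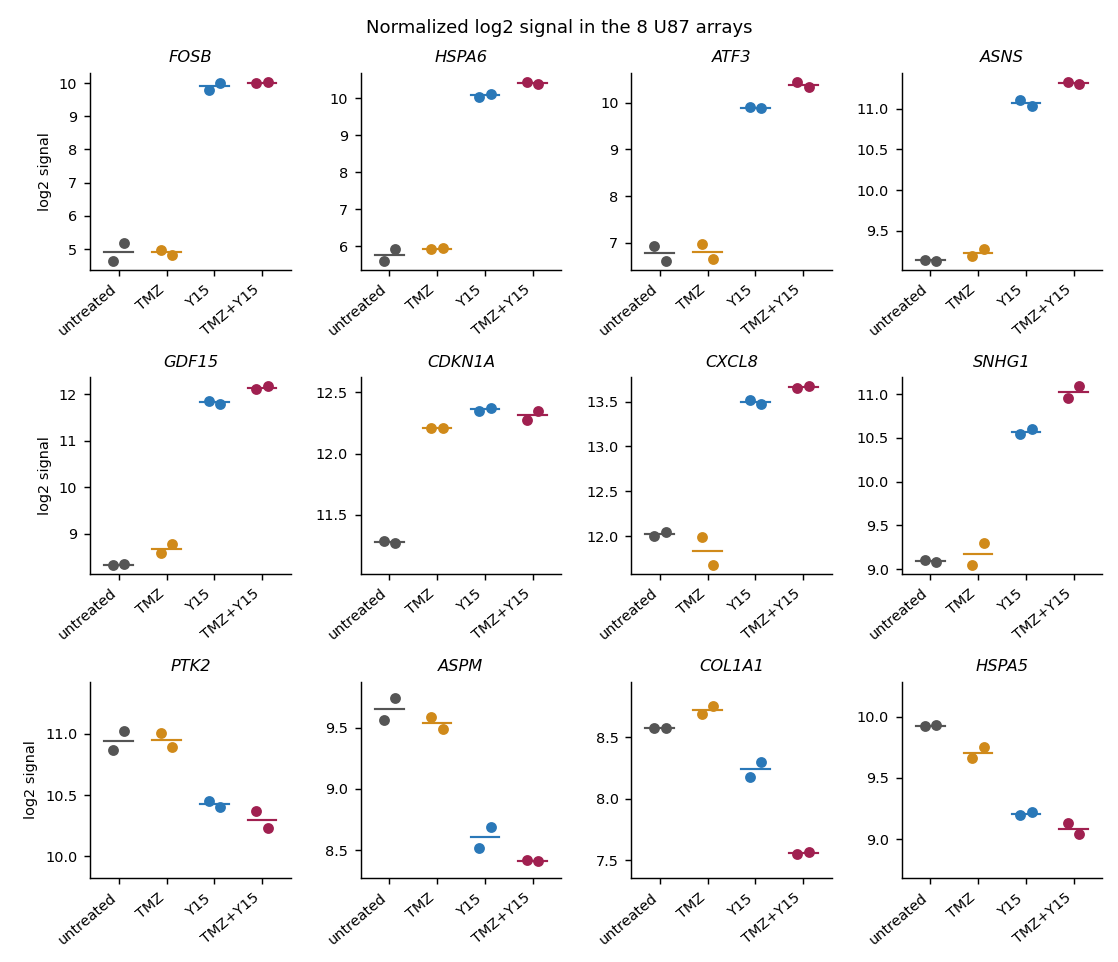
Normalized log2 signal (vertical axis) of 12 genes in the 8 U87 arrays, grouped by treatment (horizontal axis). Points are arrays and lines group means; each panel has its own axis range. CDKN1A is higher with temozolomide alone (12.21 in both arrays) as well as with Y15 and the combination.

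Each drug alone was compared with the same untreated cells. These contrasts share arrays, so their values are given side by side and not as independent support. Against untreated cells, Y15 alone gave 2516 called genes (22% of those tested), 984 higher (8.61%) and 1532 lower (13.4%), and temozolomide alone gave 1 (0.00875%), CDKN1A, with 465 genes at an unadjusted p under 0.05 where 571 would be expected by chance. The median change of the amino acid response list was 1.10 with the combination, 0.92 with Y15 and 0 with temozolomide. For p53 targets the medians were 0.62, 0.49 and 0.19, for NF-kB genes 0.90, 0.81 and -0.06, for G2 and mitosis -0.58, -0.56 and 0.10, and for the host genes of small nucleolar RNAs 1.13, 0.64 and -0.08. Over all small RNAs of a class, they were 6.50, 6.62 and 0.26 for U3 and U13 and 3.02, 3.22 and 0 for spliceosomal RNAs. For other box C/D RNAs they were 1.10, 0.93 and -0.02, and for box H/ACA RNAs 0.98, 0.75 and 0.02. Cajal body RNAs gave 0.50, 0.48 and 0.03, and the other polymerase III RNAs 1.15, 1.56 and -0.23. FOSB, detected in no array without Y15, reached 9.79 and 10.01 with Y15 and 9.99 and 10.03 with the combination. GDF15 stood at 8.58 and 8.78 with temozolomide, 11.85 and 11.80 with Y15 and 12.12 and 12.17 with both.

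Compared directly, the combination differed from temozolomide alone in 2895 genes (25.3%), 1241 higher (10.9%) and 1654 lower (14.5%). With 1 of those 4 arrays left out, the count ran from 1274 to 1694. With median centring, 722 were higher and 2192 lower. The 5 largest differences upward were SNORD3C, SNORD3D, SNORD3A, RNA5S9 and FOSB. Downward they were D2HGDH, DEPP1, ZNF395, NOMO3 and PRR11. The transcription factor ZNF395 gave 10.36 and 10.18 with temozolomide and 8.73 and 8.45 with the combination.

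The combination differed from Y15 alone in 35 genes (0.306%), 10 higher (0.0875%) and 25 lower (0.219%). At an unadjusted p under 0.05 in limma there were 1289 genes, where 571 would be expected by chance. Of all differences, 90% lay between -0.37 and 0.41. The count of 35 called genes was the least stable of those made. It was 70 without the second Y15 array and 0 without any of the other 3 arrays, and 3715 (3640 of them higher) with median centring, which put the median of all genes at 0.426. With that scaling, the combination thus differed from Y15 alone in more genes than the 2914 by which it differed from temozolomide alone. Of the 10 genes higher with the combination, 9 were detected in neither array of Y15 alone. VPS50, a subunit of an endosomal tethering complex, gave 6.13 and 6.17 in untreated cells, 5.02 in both arrays with Y15 and 6.41 and 6.42 with the combination. PM20D2 gave 6.20 and 6.0 in untreated cells, 5.08 and 4.85 with Y15, and 5.93 and 5.90 with the combination. In both genes the combination arrays lay near the untreated ones. CCNG2, an unusual cyclin that slows the cell cycle, stood at 5.53 and 5.02 with Y15 and 6.21 and 6.23 with both, and the zinc finger gene ZNF705G at 5.22 and 5.31 against 6.62 and 6.40. Among the U87 arrays RND1 was detected only with the combination (5.60 and 5.88, against 4.77 and 4.68 with Y15). SLC7A11 was the single member of the ATF4 and NRF2 lists in this set. It was detected in neither Y15 array, at 4.66 and 4.72 against 5.45 and 5.44 (adjusted p 0.0355), too close to background for a fold.

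The 25 genes lower with the combination were chosen by that difference, so their levels are a description. They were, in the arrays with Y15 alone, 0.45 to 2.32 above untreated cells, with a median of 1.85, and with the combination their median was 0.88 above. DDX51, an RNA helicase of ribosome assembly, gave 9.59 and 9.6 in untreated cells, 9.51 and 9.74 with temozolomide, 11.66 and 11.41 with Y15 and 10.30 and 10.25 with both. The combination arrays thus lay between untreated cells and Y15 alone. The same order was seen for TMEM106A (6.29 and 6.03, then 8.79 and 8.19 with Y15, then 7.04 and 7.13 with both), CRCP, a subunit of RNA polymerase III (8.77 and 8.84, 11.34 and 10.76, 9.89 and 9.49), the pseudogene AOC4P (8.59 and 8.83, 11.14 and 10.87, 9.70 and 9.77) and the homeobox gene RAX2 (6.29 and 6.40, 8.44 and 7.80, 6.80 and 6.94). The Y15 arrays also detected the fewest probes of the U87 arrays, and the part of that in these differences was not tested.

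**Figure D5:**
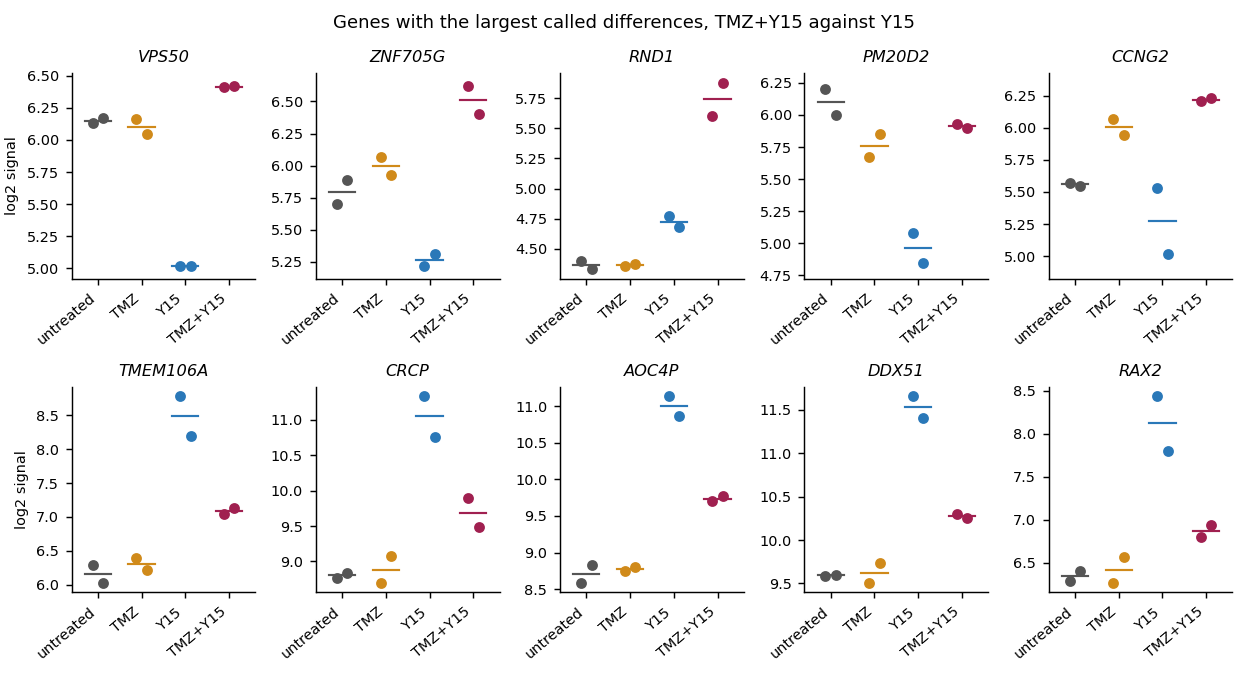
Normalized log2 signal (vertical axis) in the 8 U87 arrays, grouped by treatment (horizontal axis), for the 5 largest called differences upward (top row) and downward (bottom row) between the combination and Y15 alone. Points are arrays and lines group means; each panel has its own axis range. In the bottom row the combination lies between untreated cells and Y15 alone.

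Whether the drugs together did more or less than the sum of their single changes was tested as an interaction on the log2 scale. No gene passed (limma, lowest adjusted p 0.0626), with 950 genes at an unadjusted p under 0.05 where 571 would be expected. That lowest adjusted p was shared by CCDC125 (interaction -1.21), PNLIPRP3 (1.32), DDX51 (-1.29), CDKN1A (-0.99), PM20D2 (1.29), SSTR2 (-1.58) and VPS50 (1.44). CDKN1A had the smallest interaction of these and is given in detail as the only gene called with temozolomide alone. It rose by 0.93 with temozolomide (levels 12.21 and 12.21), by 1.08 with Y15 (12.35 and 12.37) and by 1.03 with both (12.27 and 12.35), so that its combined change lay 0.99 ± 0.14 below the sum of the single ones (adjusted p 0.0626). The combination differed from Y15 alone by -0.05, with a 95% interval of -0.27 to 0.17, and from temozolomide alone by 0.09, with an interval of -0.13 to 0.32. The interaction of CDKN1A passed the threshold with the deposited log2 values (0.00123), with no background correction (0.00105), with an offset of 50 (0.0121), with array weights (0.0167) and with a detection filter of 4 arrays (0.0485). With the deposited log2 values and with no background correction, CCDC125, DDX51 and SSTR2 passed as well, and PNLIPRP3, PM20D2 and VPS50 did not. For CDKN1A the value was -0.56 with median centring (adjusted p 0.168) and -0.70 with all kept probes of a gene averaged (0.325). Over all alternatives its adjusted p ran from 0.00105 to 0.38. For COL1A1 the combination was 0.68 ± 0.15 below Y15 alone (adjusted p 0.0811, 95% interval -1.0 to -0.35). For ATF3 it was 0.49 ± 0.17 above Y15 alone (adjusted p 0.303, interval 0.11 to 0.87), and for PTK2 the interval was -0.40 to 0.14. These are differences from Y15 alone. The interactions were -0.83 for COL1A1 (limma, adjusted p 0.271) and 0.46 for ATF3 (0.664). All intervals given here are for single genes, without adjustment for the number of genes tested.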

How the data were processed

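Total RNA of 12 samples was labelled as biotin cRNA and hybridized to single-colour Illumina bead arrays, per the labels' protocols, whose extraction text speaks of frozen tissue although every sample is labelled as a cell line. GenomeStudio was used, per the submitters' processing notes. The deposited table of raw intensity values is on a linear scale, with a detection p-value per probe, per the file headers. A second deposited table holds log2 values with nearly equal medians, made by a normalization for which the sources used here give no name, and served as an alternative.

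With limma 3.58.1 in R 4.3.3, signals were background corrected by normexp using the detection p-values (offset 16), put on the log2 scale and quantile normalized. Probes detected (p under 0.01) in at least 2 of 12 arrays were kept (19354). Symbols came from the platform annotation through Entrez numbers, giving 30113 probes 1 symbol and 8 several, while 17202 were not listed. For 3061 genes with several kept probes the brightest was used, and 11423 genes entered. The offset understates changes of dim probes. The 6 group means were fitted over all 12 arrays (6 residual degrees of freedom, prior 4.46), with eBayes and two-sided p-values adjusted by Benjamini-Hochberg at a threshold of 0.05. The number of arrays limits the precision. "At least N-fold" sets the brighter group's mean against the lowest detected level where no array of the other group detected the probe. No slide or scan batch was used, since none is given in the sources used here.

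The gene lists, the comparisons and the rule for named genes were chosen with earlier results of these data known. The rule takes the 10 largest called rises and falls with both treated arrays outside the untreated range, the 3 smallest p-values of each list with at least 3 called genes, the 5 largest called differences in each direction between the combination and each single drug, and PTK2, PTK2B, CDKN1A, MDM2, GDF15, DDIT3, ATF3, HMOX1, MYC, GAPDH, FOS and TXNIP. It named 114 genes, and 43 had another kept probe, of which 0 were called in the opposite direction against untreated cells. The comparisons with single drugs were not checked in this way. With all kept probes of a gene averaged, DDX51 (-0.62), CRCP (-0.66) and CCNG2 (0.57) lost their call against Y15 alone. Further list members are named with their change alone. The fit was tested on simulated data. Alternatives changed the scaling, background, offset, filters, arrays, weights, replicate block and probe choice. Promoter sequences are those of RefSeq (GRCh38.p14).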

Additional observations from a re-analysis of the deposited data

Results flagged for a closer look

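Probes without a single gene symbol carried signal that the gene comparisons do not use. Of 4101 such kept probes, 652 (15.9%) were called with the combination against untreated U87 cells, 443 higher and 209 lower, and 137 of them differed at least 2-fold. Among all 19354 fitted probes 3627 (18.7%) were called. With 2 arrays in every group, no array was tested for standing apart from its group.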

How the results depend on the processing

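The count of genes called between the combination and untreated cells (2643) ran from 2327 to 3721 over the alternatives that keep all 4 arrays, and from 1139 to 1514 with an array left out. Against temozolomide alone the count of 2895 fell to between 1274 and 1694 with an array left out. Against Y15 alone, 35 became 3715 with median centring, 149 with the deposited values, 149 without background correction, 135 with an offset of 50, 14 without a filter on dim probes, 72 with detection in 4 arrays, 116 with the U87 arrays only, 0 with only the 4 arrays compared, 215 with array weights and 0 to 70 with an array left out. The interaction, with 0 calls, gave 2 with median centring, 57 with the deposited values, 54 without background correction, 22 with an offset of 50, 7 with detection in 4 arrays, 12 with array weights and 0 to 26 with an array left out. The cause was not tested, other than that leaving out arrays lowers the number of samples. Replicate numbers did not pair the samples: deviations of same-numbered U87 arrays correlated between -0.0547 and 0.0865 over 6 pairs of groups. With the replicate block, the counts were 2607 against untreated cells, 2902 against temozolomide, 22 against Y15 and 0 for the interaction. A filter on the 8 U87 arrays, added after the data had been seen, gave 2729. Of 96 named genes called against untreated cells, 73 were called in every alternative and 0 changed direction. The 23 that lost the call in at least 1 were BAX, BCL2L2, BOP1, CALD1, CD44, COX7B, CYC1, DDX21, FANCG, FARSB, GAR1, GARS1, IFIT2, ISG20, MIR658, MYC, NDUFS1, NES, PTK2, SNAR-A1, SQSTM1, SRSF5 and WARS1, with adjusted p-values up to 0.551 (GAR1). The 10 genes named for the combination against Y15 each lost the call in at least 4 alternatives. Signal over background limits FOS, FOSB, CRYAB, SLC7A11, ISG20, SRSF11, RND1 and MIR658, which 1 group did not detect.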
